A study of Caenorhabditis elegans with 12 samples.

Results

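Gene expression in wild-type Caenorhabditis elegans embryos was compared between the bean stage and the 2-fold stage, using the 2 libraries labelled bean and the 2 labelled 2-fold of strain N2, which are 4 of the 12 libraries of the series. The other 8 libraries were N2 embryos at the 190-cell stage and miR-51Fam null embryos, which lack the miR-51 family of microRNAs, at the same 3 stages, with 2 libraries per group. The strain list gives the null strain, MLC1800, a rescue array, lucEx1057, that carries members of the family. Each library came from 50 whole embryos, picked as 2-cell embryos from mothers kept at 20 °C and left to develop in M9 buffer, and no treatment was given. All libraries carried 1 batch label, and the study calls the replicates independent without saying whether they came from separate cultures, so p-values measure only the spread between these libraries.

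The bean stage comes at the start of elongation, when embryonic cell division has nearly stopped and the epidermis closes around the embryo. Contraction of actin and myosin in the epidermis first squeezes the embryo into a longer shape, and from the 2-fold stage on, contractions of body wall muscle are passed through hemidesmosomes to the epidermis and drive it further. Over the same period neurons grow processes and cilia, the gut and pharynx mature, and the epidermis secretes an apical extracellular matrix, the precuticle, before the collagen cuticle is laid down.

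Polyadenylated RNA was read at its 3′ end by QuantSeq, and each gene's level is given here in CPM, its reads per 1000000 reads assigned to genes, with library sizes scaled by TMM. The files listed 20362 genes, of which the 12062 with 20 or more reads over the 12 libraries were tested. The bean libraries held 1651557 and 2111405 assigned reads and the 2-fold libraries 7223442 and 887059, and between 7814 and 11531 genes had a read. The deepest library did not have the most genes, and repeated reading of the same molecules was assumed, although according to the methods duplicates were discarded by UMI ahead of counting. The estimates were between 3.68 and 34.5 reads per molecule, so that 3 molecules over a stage corresponded to 8.49 CPM at the bean stage and 7.50 CPM at the 2-fold stage. These values served as floors below which a gene could not be told from absent, and they cover counting error only. If the counts are molecules after all, the floors and the lower bounds below are too strict. A log2 change or ratio of a gene whose lower stage has reads but lies under its floor is fitted on those reads, and its size is not resolved in molecules. The libraries were of whole embryos, so fewer cells of a type and less RNA per cell cannot be told apart.

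The 2-fold library of replicate 2 stood apart from the other 2-fold library in markers of adult and maternal material. Summed vitellogenin mRNA, which encodes yolk protein made in the adult gut and is a marker of adult material, was 257 and 185 CPM in the bean libraries and 1053 and 3327 CPM in the 2-fold libraries. All 6 vitellogenin genes were higher in both 2-fold libraries than in both bean libraries, and vit-3 was the 1 that was called. The 39 genes for maternal RNA-binding and oocyte proteins summed to 2628 CPM in 2-fold replicate 1 and 8196 CPM in replicate 2, and the adult cuticle collagen col-20 was at 0.987 and 121 CPM. Of 31 major sperm protein genes 2 were tested, and they summed to 14.6 CPM in 2-fold replicate 2 and to 0 in the other 3 libraries. Across all tested genes, Spearman's rho with the bean libraries was 0.669 and 0.689 for 2-fold replicate 1 and 0.736 and 0.771 for replicate 2, and these values describe genes, not replicates. The total counts are therefore given with and without replicate 2, most list counts with their range when 1 of the 4 libraries is left out, and the part of this material in any result below was not tested.

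Of the 12062 genes, 525 (4.35%) were called different between the bean and 2-fold stages by edgeR's quasi-likelihood test at a Benjamini-Hochberg adjusted p below 0.05. At the 2-fold stage 381 genes (3.16%) were higher and 144 (1.19%) were lower, and 1830 genes had an unadjusted p below 0.05. In all 525 the 2 libraries of one stage lay above both of the other. That pattern was seen in 3804 tested genes (31.5%) for the 2-fold stage and in 2331 (19.3%) for the bean stage. The list counts below are to be read beside these shares of called and of non-overlapping genes over all tested genes. The median log2 change over all tested genes was 0.19, and it was 0 when genes without a read at a stage were set to the change their floor allows. With DESeq2 size factors the median rose to 0.55 and the calls were 620 higher and 126 lower, and with TMMwsp scaling it was 0 with 311 higher and 188 lower. Higher calls thus made up 72.6%, 83.1% or 62.3% of all calls.

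Single libraries moved these counts. Without 2-fold replicate 2, 611 genes were higher (5.1% of 11986 tested) and 200 lower (1.67%), and 374 of the 381 and 106 of the 144 genes above were among them. Without 2-fold replicate 1 the counts were 179 and 54, without bean replicate 1 they were 195 and 72, and without bean replicate 2 they were 269 and 96. Of the 525 genes, 183 were called in each of these 4 repeats, 140 of them higher and 43 lower, and no gene changed direction. The null libraries enter through the shared fit, and without null bean replicate 1 or 2 the wild-type comparison gave 917 or 906 calls.

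**Figure D1:**
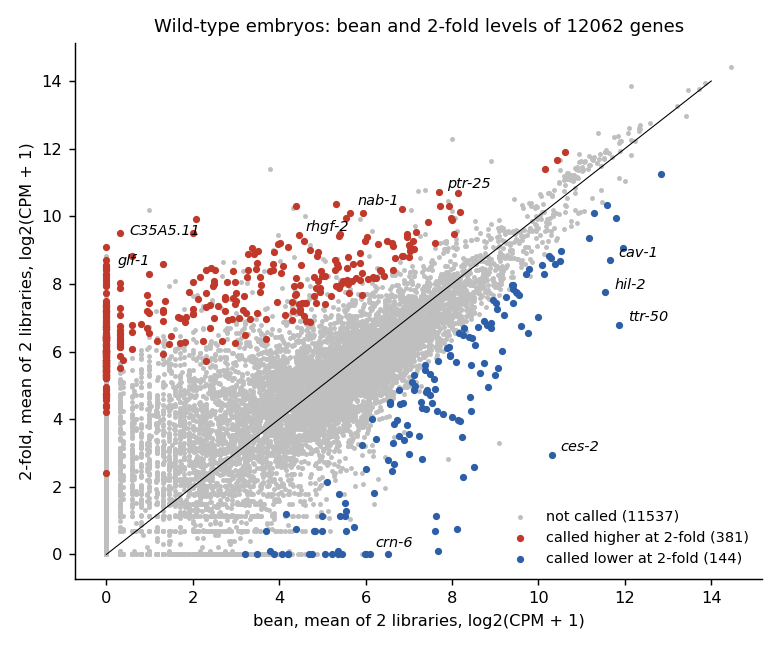
Mean of the 2 bean libraries (x axis) against the mean of the 2 wild-type 2-fold libraries (y axis), both as log2(CPM + 1), with 1 point per tested gene. The 381 genes called higher are red and the 144 called lower blue, and many red points sit at the left edge, where the bean libraries had no or few reads.

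The genes that rose were mostly near or below detection at the bean stage. Of the 381, 163 had no read in either bean library and 252 were under the bean floor, and the median level went from 0.996 CPM at the bean stage to 140 CPM at the 2-fold stage. The floor at the 190-cell stage was 8.07 CPM, and 226 of the genes were under both floors, so that they were first detected at the 2-fold stage among the stages sampled. The genes that fell had been present: 137 of the 144 were at or above the 190-cell floor, and their median went from 194 to 21.5 CPM. Only 16 of these had no read in either 2-fold library. In the wild-type 190-cell libraries vitellogenin mRNA summed to 4278 and 548 CPM, and the maternal RNA-binding list to 10292 and 3066 CPM. The part of that material in the counts at the 190-cell stage was not tested. The shares of all tested genes without a read or under a floor are not given for comparison. The bean libraries had reads for 7814 and 9373 genes against 12062 tested, so tested genes outside the 381 also lacked reads in a bean library.

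The leading gene with a read at both stages was C35A5.11, a gene on chromosome V (WBcel235, 10502110 to 10503111) that has no descriptive name. It was at 0 and 0.498 CPM in the bean libraries and at 821 and 617 CPM in the 2-fold libraries, a log2 change of 11.15 (SE 0.88, adjusted p = 6.65e-09). A single bean read underlies this, so the ratio of 2901 has an exact 95% counting interval of 520 to 114602, which is too narrow where reads copy molecules. Its bean level lies under the floor of 8.49 CPM, so the size of the change is not resolved in molecules. The SE here and below is the absolute log2 change over the square root of the test's F statistic, not a fitted standard error. For C35A5.11 the counting interval is wider than this SE implies. R57.2, also unnamed, had a single bean read too, at 0.498 CPM, and rose to 308 and 214 CPM (adjusted p = 4.95e-07).

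Several leading genes had no bean read at all, and their fold is a lower bound set by the floor. wrt-2, on chromosome X from 3092395 to 3094349, encodes a secreted Hedgehog-related protein and was at 379 and 306 CPM at the 2-fold stage, at least 40.3-fold higher (adjusted p = 1.84e-07). glf-1, on chromosome IV from 5885835 to 5889821, encodes UDP-galactopyranose mutase, an enzyme that makes the galactofuranose of surface glycans, and was at 615 and 473 CPM, at least 64.1-fold higher (adjusted p = 5.49e-07). C06E7.88 was at 439 and 294 CPM, M03B6.3 at 311 and 229 CPM and the gene WBGene00012175 at 303 and 182 CPM, and all of these were at least 28.5-fold higher. These bounds depend on the estimated reads per molecule: with the estimate from genes of up to 30 CPM the bean floor was 17.4 CPM, and the bound of glf-1 was 31.2-fold.

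Among genes that rose and were above the floor at the bean stage, the smallest p belonged to rhgf-2, which encodes a guanine nucleotide exchange factor that works in elongation. It lies on chromosome II from 4100785 to 4127853, and its level went from 12.9 and 28.9 CPM to 797 and 601 CPM, a log2 change of 5.05 (SE 0.54, adjusted p = 4.95e-07). nab-1, which encodes the actin-binding scaffold neurabin and is named here after its values were seen, went from 39.2 and 58.8 CPM to 1315 and 893 CPM (log2 change 4.49, SE 0.50, adjusted p = 7.31e-07). Both 2-fold libraries lay far above both bean libraries for either gene.

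Among genes that fell, ces-2 had the smallest p. It encodes a bZIP transcription factor known for its part in the death of a neuronal sister cell, and it lies on chromosome I from 14961497 to 14965361. Its mRNA was at 1384 and 1150 CPM at the bean stage and at 3.62 and 9.71 CPM at the 2-fold stage, a log2 change of −7.84 (SE 0.56, adjusted p = 4.04e-10). The gene was at 0.206 and 0 CPM at the 190-cell stage, so among the stages sampled it was high at the bean stage only. ins-2, an insulin-like peptide gene, went from 224 and 186 CPM to 0.164 and 0 CPM, with a ratio of 1402 on a single 2-fold read (exact 95% counting interval 251 to 55434, on reads) that lies under the 2-fold floor of 7.50 CPM.

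The other leading genes that fell stayed detectable at the 2-fold stage. ttr-50, a transthyretin-related gene on chromosome IV from 11640047 to 11641015, went from 3980 and 3437 CPM to 92.1 and 126 CPM (log2 change −5.10, SE 0.46, adjusted p = 9.03e-08). cav-1, which encodes the membrane coat protein caveolin, went from 3451 and 2971 CPM to 438 and 390 CPM (−2.95, SE 0.36, adjusted p = 3.44e-06). clec-196, a C-type lectin gene, fell from 343 and 342 CPM to 23.7 and 24.3 CPM, and the unnamed genes C08F1.10 and Y65A5A.1 fell from 290 and 313 to 14.3 and 6.07 CPM and from 619 and 446 to 43.6 and 46.1 CPM. All 16 leading genes, with the linker histone gene hil-2 described with chromatin below, kept their call in each repeat without 1 of the 4 libraries.

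**Figure D2:**
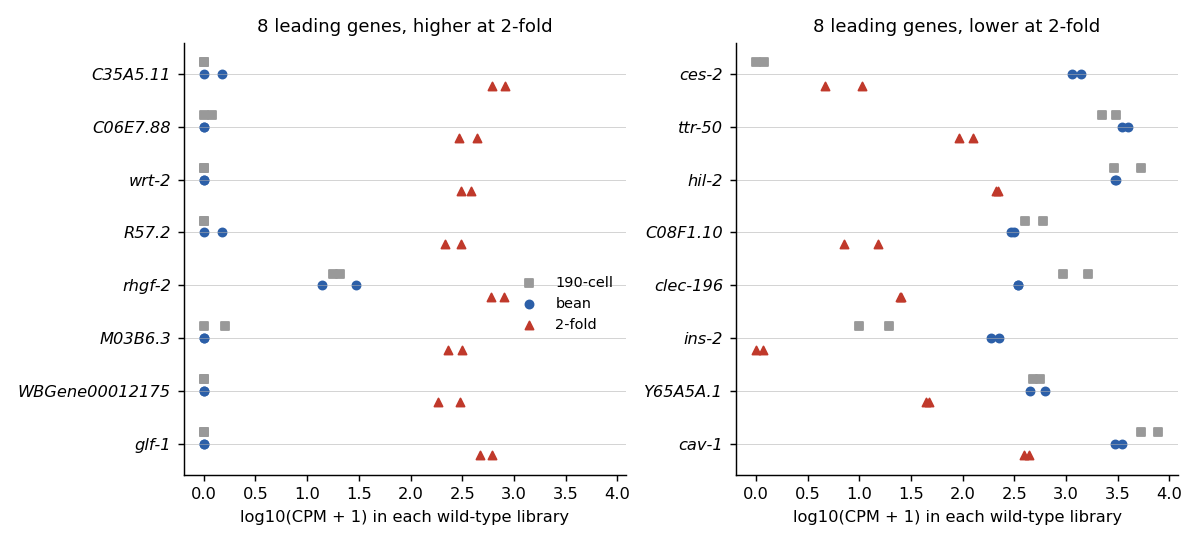
Level in each wild-type library, as log10(CPM + 1) on the x axis, of the 8 leading genes that rose (left) and the 8 that fell (right), with squares for the 190-cell, circles for the bean and triangles for the 2-fold stage. Bean and 2-fold points are far apart in every row, and ces-2 is near 0 at the 190-cell stage.

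Genes of the muscle sarcomere were among those that rose. Of 36 tested genes for sarcomere proteins and their attachments, 9 were higher (25%, against 3.16% of all tested genes) and none lower. The median log2 change was 2.64 (2.52 with genes without a read at a stage at their bound) against 0.19 (0) over all genes. Both 2-fold libraries were above both bean libraries for 30 of the 36, against 31.5% of all tested genes. The summed level went from 7221 and 6748 CPM to 24033 and 17952 CPM. Repeats without 1 of the 4 libraries called between 4 and 18 of the 36 higher.

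The called sarcomere genes covered the thick filament, the thin filament and the dense bodies that anchor it to the membrane. alp-1, which encodes a PDZ-LIM protein of dense bodies, went from 6.74 and 2.49 CPM to 289 and 225 CPM (log2 change 5.81, SE 0.77, adjusted p = 1.74e-05). dim-1, which encodes an immunoglobulin-repeat muscle protein, went from 18.4 and 37.9 CPM to 548 and 353 CPM (4.0, SE 0.57, adjusted p = 2.64e-05). The other 7 called members are named after their values were seen: the myosin heavy chain genes myo-3 and unc-54, the light chain gene mlc-3, the tropomyosin gene lev-11, the vinculin gene deb-1 and the LIM-domain genes unc-95 and lim-8. Of these, deb-1 rose from 11.6 and 1.49 CPM to 399 and 262 CPM, myo-3 from 40.4 and 20.4 CPM to 385 and 277 CPM, and unc-54 from 31.9 and 44.3 CPM to 423 and 408 CPM. act-4, the actin gene with the highest level in the list, was at 4066 and 3423 CPM and then at 5266 and 3896 CPM and was not called.

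Troponin is the calcium switch of the thin filament. All 9 tested troponin genes were higher in both 2-fold libraries than in both bean libraries, a pattern seen in 31.5% of all tested genes. The 9 summed to 780 and 782 CPM at the bean stage and 5941 and 4818 CPM at the 2-fold stage, and 2 of them were called. The repeats called between 0 and 5, with 5 without 2-fold replicate 2 and 0 without either bean library. The 2 were tni-1, from 170 and 178 CPM to 1080 and 746 CPM (log2 change 2.39, SE 0.48, adjusted p = 0.00235), and tnt-3, from 99.2 and 95.1 CPM to 663 and 527 CPM (2.61, SE 0.52, adjusted p = 0.00204). The troponin family was chosen after its values were seen, as were 3 further muscle genes that rose, mlp-1, ketn-1 and cpna-2, which encode a muscle LIM protein, kettin and a copine-domain protein. cpna-2 went from 0 and 7.97 CPM to 410 and 273 CPM.

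Of 16 tested genes for muscle excitation and calcium handling, 3 were higher (18.8%, against 3.16% of all tested genes) and none lower. The median was 4.76 (2.61 at the bounds), and the repeats called between 1 and 6. unc-36, which encodes the α2δ subunit of voltage-gated calcium channels, had no bean read and was at 113 and 49.8 CPM at the 2-fold stage, at least 9.57-fold higher (adjusted p = 0.00035). unc-29, which encodes an acetylcholine receptor subunit of muscle, had no bean read either and was at 32.1 and 8.50 CPM (adjusted p = 0.0244), with a log2 change of 1.26 at its bound. egl-19, the channel's pore subunit gene, named after its values were seen, went from 0.613 and 4.48 CPM to 162 and 68 CPM (adjusted p = 0.041). unc-29 and egl-19 each kept their call in 1 of the 4 repeats. The calcium pump gene sca-1 had the highest level in the list, between 295 and 401 CPM in the 4 libraries, and was not called.

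**Figure D3:**
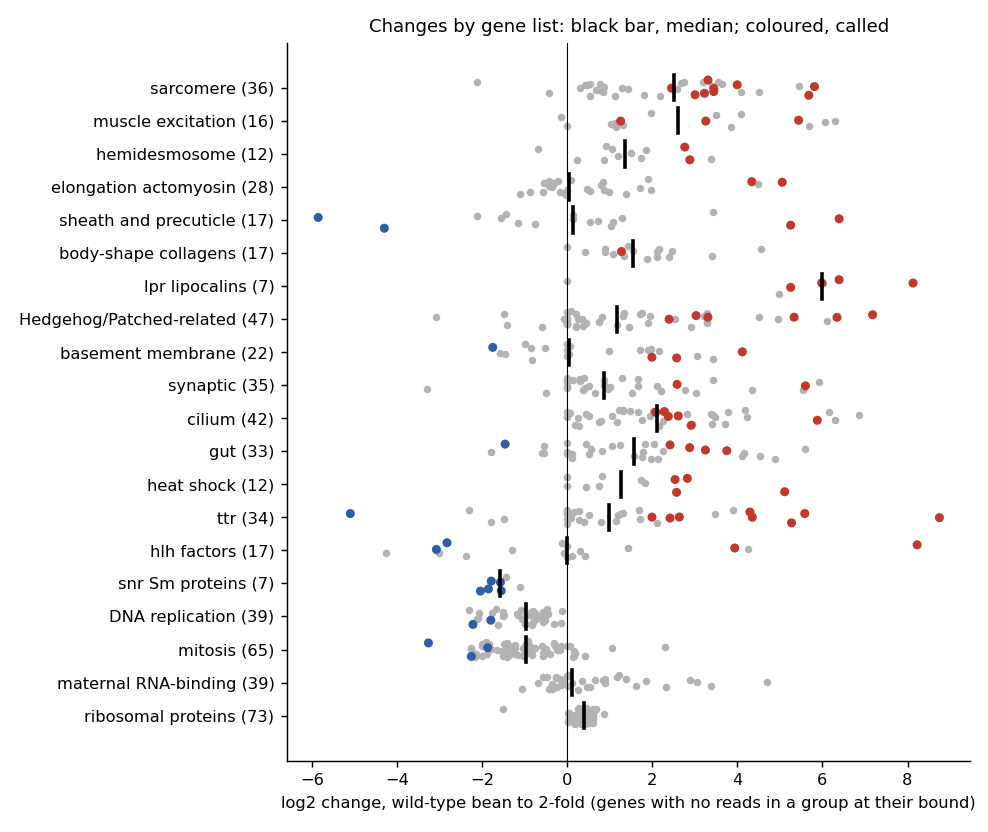
Log2 change from the bean to the 2-fold stage (x axis) of each tested gene in 20 lists and families, with genes without reads at a stage at their bound and the number tested in brackets. Black bars are medians, red and blue points are genes called higher and lower, and grey points were not called; the sarcomere median lies at 2.52 and the mitosis median at −0.98.

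Hemidesmosome and intermediate filament genes link muscle through the epidermis to the cuticle. Of the 12 tested, 2 were higher (16.7%, against 3.16% of all tested genes) and none lower. ifa-3 and ifb-1, intermediate filament genes, went from 42.9 and 72.2 CPM to 440 and 343 CPM (log2 change 2.76, SE 0.63, adjusted p = 0.0102) and from 60 and 43.3 CPM to 444 and 317 CPM (2.88, SE 0.73, adjusted p = 0.0324). The list median was 1.80 (1.35 at the bounds), and the repeats called between 0 and 3. The spectraplakin gene vab-10 was at 232 and 224 CPM and then at 603 and 447 CPM, and the receptor gene let-805 at 70.4 and 84.2 CPM and then at 187 and 93.5 CPM, and neither was called.

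Of 28 tested genes of the epidermal contraction machinery, which encode actomyosin, spectrin and their regulators, 2 were higher (7.14%, against 3.16% of all tested genes) and none lower, with a median of 0.05. They were rhgf-2 and fhod-1, which encodes a formin that assembles actin filaments and went from 9.19 and 21.9 CPM to 378 and 256 CPM (log2 change 4.34, SE 0.67, adjusted p = 0.000116). Both kept their call in each repeat, and without 2-fold replicate 2 the list had 6 higher. The kinase gene let-502 was at 57 and 138 CPM and then at 406 and 238 CPM, the non-muscle myosin gene nmy-1 at 250 and 215 CPM and then at 697 and 523 CPM, and the cadherin gene hmr-1 between 184 and 254 CPM in the 4 libraries. None of these 3 was called.

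Apical extracellular matrix genes moved in both directions. Of 17 tested precuticle genes, 2 were higher and 2 lower, with a median of 0.14. lpr-3, which encodes a lipocalin of the precuticle, went from 5.51 and 24.9 CPM to 685 and 490 CPM (log2 change 5.25, SE 0.63, adjusted p = 2.39e-06), and lpr-1, another lipocalin gene, from 0 and 5.98 CPM to 319 and 212 CPM (6.39, SE 0.96, adjusted p = 0.000251). fbn-1, a fibrillin-related matrix gene, went the other way, from 327 and 258 CPM to 17.6 and 10.9 CPM (−4.30, SE 0.61, adjusted p = 2.64e-05). cutl-2, a cuticlin-like gene, fell from 341 and 265 CPM to 7.73 and 0 CPM (−5.85, SE 1.05, adjusted p = 0.00593). The precuticle genes noah-1, noah-2, let-653 and sym-1 were not called, and noah-1 was the most abundant, at 638 and 923 CPM and then at 1630 and 958 CPM.

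The lipocalin-related family, chosen after its values were seen, held further genes that rose. Of 7 tested lpr genes 4 were higher, the repeats called between 4 and 6, and the family summed to 39.8 and 85.2 CPM at the bean stage and to 5204 and 3559 CPM at the 2-fold stage. Beside lpr-1 and lpr-3, lpr-5 went from 21.4 and 18.4 CPM to 1556 and 962 CPM (log2 change 5.98, SE 0.72, adjusted p = 0.000135), and lpr-4 from 0 and 6.48 CPM to 1109 and 827 CPM (8.13, SE 0.99, adjusted p = 0.000668). Both 2-fold libraries lay above both bean libraries for 6 of the 7 genes, against 31.5% of all tested genes.

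Cuticle collagen genes were for the most part not called at this transition. Of 17 tested collagens and related genes of the body shape and furrow class, sqt-3 alone was higher, from 1482 and 1264 CPM to 3816 and 2739 CPM (log2 change 1.26, SE 0.33, adjusted p = 0.0237). The sum of these genes went from 7357 and 6773 CPM to 19035 and 13211 CPM, and the repeats called between 0 and 7 of them. dpy-17, at 2710 and 2653 CPM and then at 6567 and 4755 CPM, was the most abundant and was not called, and neither was dpy-7. Of 85 tested col genes, 2 were higher (2.35%, against 3.16% of all tested genes) and none was lower. The 2 were col-76, from 105.4 and 165 CPM to 759 and 466 CPM, and col-121, from 121 and 139 CPM to 609 and 386 CPM (adjusted p = 0.00581 and 0.0145). None of the 12 tested genes for collagen processing was called, among them pdi-2, a protein disulfide isomerase gene.

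Hedgehog-related proteins and Patched-related receptors act in worms largely in the epidermis and cuticle. Of 47 tested genes for them, 6 were higher (12.8%, against 3.16% of all tested genes) and none lower. The median was 3.29 (1.17 at the bounds), and the sums went from 1093 and 1242 CPM to 5345 and 3705 CPM. The stages did not overlap upwards for 31 of the 47, against 31.5% of all tested genes. ptr-4 went from 3.68 and 4.98 CPM to 390 and 323 CPM (log2 change 6.34, SE 0.76, adjusted p = 3.59e-06). ptr-25 went from 203 and 214 CPM to 2099 and 1301 CPM (3.03, SE 0.46, adjusted p = 6.13e-05). wrt-2, described above, had the smallest p of the list, and the remaining called members, named after their values were seen, were wrt-1, grl-12 and ptr-5. The repeats called between 3 and 8 of the genes.

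Further epidermal and secretory genes were singled out after their values were seen. crb-3, a Crumbs-related polarity gene, had no bean read and was at 130 and 77.7 CPM at the 2-fold stage, at least 12.22-fold higher (adjusted p = 1.6e-05). mlt-8 and mlt-9, molting genes, were also higher, as was vab-9, which encodes a claudin-like junction protein and went from 20.2 and 22.4 CPM to 180 and 125 CPM. Of 20 genes for the vacuolar proton pump 19 were higher in both 2-fold libraries than in both bean libraries, against 31.5% of all tested genes. Of the 20, 3 were called higher (15%, against 3.16% of all tested genes). vha-5 went from 0 and 1.99 CPM to 354 and 277 CPM (adjusted p = 0.00276), with its bean level under the floor, and vha-8 and vha-14 were the other called members. The repeats called between 1 and 5 of the 20, with 5 without 2-fold replicate 2.

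Of 22 tested basement membrane genes, 3 were higher (13.6%) and 1 lower (4.55%), against 3.16% and 1.19% of all tested genes. The median was 1.80 (0.05 at the bounds). The repeats called between 2 and 6 higher and 0 lower, with 6 higher without 2-fold replicate 2. unc-52, which encodes perlecan of the muscle basement membrane, went from 7.35 and 35.9 CPM to 427 and 330 CPM (log2 change 4.12, SE 0.70, adjusted p = 0.000338). let-2, a type IV collagen gene, went from 249 and 173 CPM to 1393 and 1120 CPM (2.57, SE 0.46, adjusted p = 0.000561), and mig-6, which encodes papilin and is named after its values were seen, from 221 and 278 CPM to 1162 and 824 CPM. epi-1, which encodes a laminin α chain, went from 193 and 134 CPM to 57.24 and 38.8 CPM (−1.75, SE 0.51, adjusted p = 0.0423) and lost its call in each of the 4 repeats. lam-1, the laminin β chain gene, had the highest level, at 1898 and 1953 CPM and then at 1316 and 851 CPM, and was not called.

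Cilium genes as a group were low at the bean stage. Of 42 tested, 6 were higher (14.3%, against 3.16% of all tested genes) and none lower. Both 2-fold libraries were above both bean libraries for 38 of the 42, against 31.5% of all tested genes. The sums went from 335 and 433 CPM to 1874 and 1316 CPM. The median was 6.23 as fitted and 2.12 at the bounds. mksr-2, which encodes a protein of the ciliary transition zone, had no bean read and was at 72.2 and 55.8 CPM, at least 7.54-fold higher (adjusted p = 0.00374). ift-20, an intraflagellar transport gene, went from 0 and 2.49 CPM to 89.8 and 68 CPM (log2 change 5.88, SE 1.40, adjusted p = 0.0109). The other called members, named after their values were seen, were the dynein-2 gene che-3, the rootletin gene che-10 and the transition zone genes nphp-4 and mks-3. daf-19, which encodes the RFX factor that drives ciliary genes, was at 104.1 and 62.8 CPM and then at 145 and 80.1 CPM and was not called, and the repeats called between 1 and 8 cilium genes.

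Of 35 tested synaptic genes, 2 were higher (5.71%, against 3.16% of all tested genes). The stages did not overlap upwards for 24 of the 35, against 31.5% of all tested genes. unc-104, which encodes the kinesin that carries synaptic vesicle precursors, had no bean read and was at 43.6 and 58.3 CPM, at least 6.0-fold higher (adjusted p = 0.0246). ric-19, a dense-core vesicle gene, went from 3.68 and 0 CPM to 105.3 and 70.4 CPM (log2 change 5.60, SE 1.58, adjusted p = 0.0371). Both calls were lost in at least 1 of the repeats, which called between 0 and 3. Of 34 tested neuropeptide genes none was higher and ins-2 was the 1 that fell. The guidance ligand gene slt-1, which encodes Slit, was the 1 called member of 37 signalling and adhesion genes, from 1.23 and 5.48 CPM to 232 and 138 CPM (5.74, SE 0.78, adjusted p = 1.99e-05).

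Gut genes had 4 of 33 tested members higher and 1 lower, and the repeats called between 1 and 6 higher and 0 lower, with 6 higher without 2-fold replicate 2. aqp-4, an aquaporin gene, and lbp-6, a fatty acid-binding protein gene, had no bean read and were at 148 and 81.3 CPM and at 59.4 and 65.5 CPM, at least 13.5-fold and 7.35-fold higher (adjusted p = 0.000265 and 0.0083). pept-1, an oligopeptide transporter gene, and act-5, which encodes the actin of intestinal microvilli, were the other higher members and are named after their values were seen. lbp-1, another fatty acid-binding protein gene, went from 632 and 730 CPM to 289 and 205 CPM (log2 change −1.46, SE 0.36, adjusted p = 0.0123) and lost its call in each of the 4 repeats. No gene was called among 17 endoderm specification genes or 19 pharynx genes, and the gut factor gene elt-2 was between 38 and 67.4 CPM in the 4 libraries.

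The called heat shock genes all rose. Of 12 tested heat shock genes 4 were higher and none lower, and the sums went from 788 and 666 CPM to 4999 and 3606 CPM. hsp-12.2 went from 52.7 and 24.4 CPM to 1582 and 1075 CPM (log2 change 5.11, SE 0.69, adjusted p = 0.000183), and hsp-12.1 from 293 and 268 CPM to 1984 and 1346 CPM (2.57, SE 0.39, adjusted p = 6.89e-05). The other 2, named after their values were seen, were hsp-25 and hsp-43, and all 4 belong to the small heat shock class, several of which are made in development without heat. The repeats called 3 or 4 of them.

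Transthyretin-related genes are a nematode family of secreted proteins whose functions are mostly unknown. Of 34 tested, 8 were higher (23.5%) and 1, ttr-50, lower (2.94%), against 3.16% and 1.19% of all tested genes. ttr-2 went from 4.29 and 14.9 CPM to 505 and 435 CPM (log2 change 5.58, SE 0.63, adjusted p = 1.02e-06), and ttr-16 from 14.7 and 14.9 CPM to 679 and 470 CPM (5.27, SE 0.61, adjusted p = 2.2e-06). The other 6 that rose, named after their values were seen, were ttr-35, ttr-36, ttr-37, ttr-41, ttr-48 and ttr-59. ttr-50 made up most of the family's sum at the bean stage, and the sums were 4541 and 4035 CPM and then 3889 and 3185 CPM.

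Most housekeeping lists held no call. No gene was called among 73 ribosomal protein, 33 proteasome, 31 tRNA synthetase, 68 respiratory chain and 20 endoplasmic reticulum chaperone and stress genes. Ribosomal protein genes nonetheless lay above both bean libraries in both 2-fold libraries for 58 of the 73, against 31.5% of all tested genes. The ribosomal median was 0.41, which is 0.22 above that of all genes. Of 23 tested genes of sugar metabolism, 2 were higher (8.7%, against 3.16% of all tested genes) and none lower. gpd-3, a glyceraldehyde-3-phosphate dehydrogenase gene, went from 106 and 55.8 CPM to 353 and 307 CPM (log2 change 2.03, SE 0.50, adjusted p = 0.0142). pck-1, a phosphoenolpyruvate carboxykinase gene, had no bean read and was at 76.5 and 49.8 CPM (adjusted p = 0.0392). Of the 4 repeats without 1 library, gpd-3 kept its call in 2 and pck-1 in 1.

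Transcription factor genes were called in both directions. Of 17 tested basic helix-loop-helix genes listed by hlh names, hlh-32 and hlh-13 were higher (11.8%) and hlh-2 and hlh-14 lower (11.8%). Of all tested genes 3.16% were higher and 1.19% lower. hlh-32 had no bean read and was at 151 and 109 CPM, at least 15.3-fold higher (adjusted p = 0.000132). hlh-14, an Achaete-Scute type neurogenic factor, went from 130 and 204 CPM to 27.5 and 9.71 CPM (log2 change −3.07, SE 0.73, adjusted p = 0.0215), and hlh-2, the common dimer partner of this class, from 167 and 142 CPM to 23.7 and 19.4 CPM (−2.82, SE 0.70, adjusted p = 0.0153). 3 further neurogenic genes fell and are named after their values were seen: cnd-1, a NeuroD type factor, from 95.6 and 158 CPM to 14.1 and 7.28 CPM, ztf-11, a MYT1-related factor, from 271 and 271 CPM to 57.9 and 42.5 CPM, and ham-1, which acts in neuroblast division, from 113 and 103 CPM to 34.5 and 21.8 CPM. cnd-1 and ztf-11 kept their calls in each repeat and ham-1 lost it in each. Of the hlh genes, hlh-32 kept its call in each, and hlh-13, hlh-2 and hlh-14 lost theirs in at least 1. No list of neurogenic genes was counted, so the genes named here give no share of such genes that fell.

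Among 52 tested homeobox genes with ceh names, ceh-27, an NK2 type gene, was the 1 that fell, from 178 and 121.5 CPM to 4.77 and 15.8 CPM (log2 change −4.03, SE 0.79, adjusted p = 0.00172), and none rose. Of 170 tested nuclear receptor genes 3 were higher (1.76%) and 1 lower (0.588%), both below the 3.16% and 1.19% of all tested genes. nhr-91 went from 4.29 and 24.4 CPM to 186 and 167 CPM, nhr-40 from 20.2 and 35.4 CPM to 217 and 126 CPM, and nhr-213 was the other that rose. All 3, and nhr-25 that fell, lost their call in at least 1 of the repeats without 1 library. The gene that fell, nhr-25, encodes an epidermal nuclear receptor, was the 1 called of 16 epidermal regulators, and went from 25.7 and 36.4 CPM to 0 and 2.43 CPM (−5.79, SE 1.38, adjusted p = 0.0102). die-1, a zinc finger gene needed for body morphogenesis that was named after its values were seen, fell from 159 and 157 CPM to 19.1 and 19.4 CPM. No call was made among 10 Hox genes, and the tissue factors lin-26, pha-4 and unc-120 were not called.

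Several chromatin genes were among those that fell. hil-2, which encodes a linker histone, went from 3038 and 2963 CPM to 220 and 210 CPM (log2 change −3.80, SE 0.41, adjusted p = 5.04e-07). Of 8 tested linker histone genes, a family chosen after its values were seen, his-24 and hil-3 fell too, from 3871 and 4072 CPM to 602 and 459 CPM and from 965 and 1058 CPM to 165 and 94.7 CPM. The other 5 were not called, and 1 of the 8 was higher in both 2-fold libraries than in both bean libraries. The family's summed level was not lower at the 2-fold stage, at 12968 and 13374 CPM and then at 18431 and 13896 CPM. The histone variant gene htz-1, the SUMO gene smo-1, the chromatin-binding gene baf-1 and the HMG-box gene hmg-1.1, also picked after their values were seen, all fell, hmg-1.1 from 7983 and 6687 CPM to 2592 and 2307 CPM.

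The 7 genes for the Sm core of the spliceosome, snr-1 to snr-7, were all lower in both 2-fold libraries than in both bean libraries. That pattern was seen in 19.3% of all tested genes. Of the 7 genes 5 were called (71.4%, against 1.19% of all tested genes). The 7 summed to 5496 and 6316 CPM at the bean stage and 1935 and 1889 CPM at the 2-fold stage, with a median of −1.57. snr-6 had the smallest p, from 1313 and 1349 CPM to 395 and 377 CPM (log2 change −1.78, SE 0.37, adjusted p = 0.00263), and the repeats called between 1 and 3 of the 7. snr-1 and snr-7 lost their call in each of the 4 repeats. The family was chosen after its values were seen.

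The cell cycle genes that passed the test were lower at the 2-fold stage. Of 39 tested DNA replication genes 2 were lower (5.13%), and of 65 tested mitosis genes 3 (4.62%), against 1.19% of all tested genes, with medians of −0.96 and −1.0. Both 2-fold libraries lay below both bean libraries for 23 of the 39 and 37 of the 65, against 19.3% of all tested genes. cdt-1, a replication licensing gene, went from 162 and 194 CPM to 22.4 and 57 CPM (log2 change −2.21, SE 0.59, adjusted p = 0.0246), and rpa-2, a single-stranded DNA-binding gene, from 333 and 275 CPM to 59.9 and 118 CPM (−1.79, SE 0.53, adjusted p = 0.0472). cyd-1, which encodes cyclin D, went from 159 and 86.2 CPM to 10.5 and 15.8 CPM (−3.26, SE 0.71, adjusted p = 0.00438), cdc-25.2, a mitotic phosphatase gene, from 458 and 315 CPM to 121 and 89.8 CPM (−1.87, SE 0.43, adjusted p = 0.00747), and the condensin gene hcp-6, named after its values were seen, from 162 and 121 CPM to 17.9 and 43.7 CPM.

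The spread between the 2-fold libraries was wide for these lists. The replication genes summed to 4137 and 4869 CPM at the bean stage and to 1278 CPM in 2-fold replicate 1 and 3182 CPM in replicate 2, and the mitosis genes to 7918 and 8425 CPM and then to 2510 and 5520 CPM. The library with the higher sums was the one with more vitellogenin and maternal mRNA. Without it the calls were 3 and 9 lower, and without replicate 1 they were 0 and 0.

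**Figure D4:**
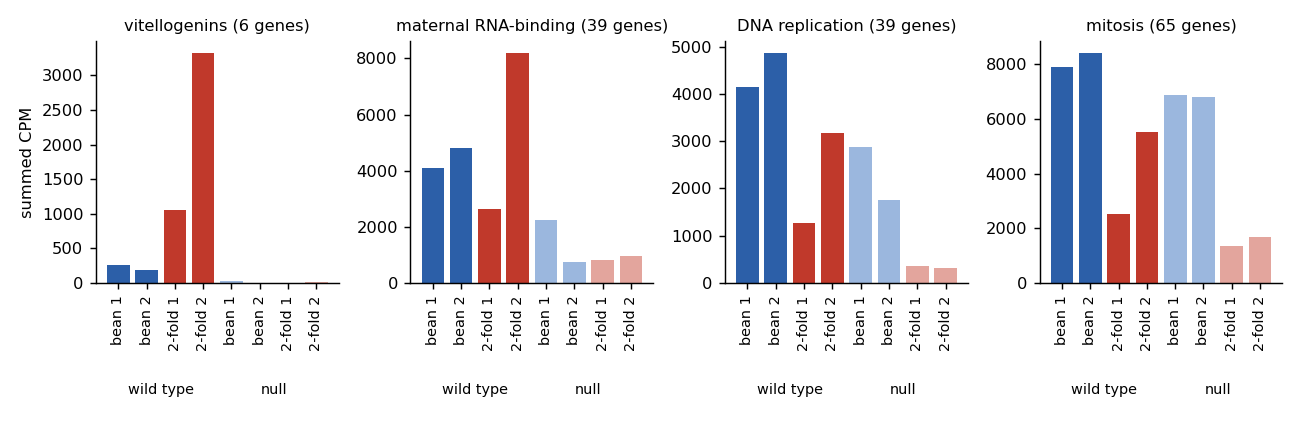
Summed level (CPM, linear axes from 0) of the vitellogenin, maternal RNA-binding, DNA replication and mitosis lists, with 1 bar per bean and 2-fold library of the wild type (dark) and the null strain (pale). Wild-type 2-fold replicate 2 is above replicate 1 in all 4 panels, as in the vitellogenin sums of 3327 and 1053 CPM.

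Of the remaining calls in the lists, crn-6, a nuclease gene of apoptotic DNA breakdown, was the 1 of 17 cell death genes that fell, from 82.1 and 45.3 CPM to no read in either 2-fold library, at least 8.49-fold lower (adjusted p = 8.91e-06). The antimicrobial peptide genes cnc-10, from 423 and 373 CPM to 34.7 and 44.9 CPM, and nlp-31, from 54.5 and 176 CPM to 18.6 and 24.3 CPM, fell among 13 tested, and reads of near-identical peptide genes can be lost as multi-mapped. par-1, a polarity kinase gene, rose from 21.4 and 62.8 CPM to 265 and 239 CPM (log2 change 2.58, SE 0.58, adjusted p = 0.00615). Of 20 tested innexins, gap junction genes chosen as a family after their values were seen, inx-2 and inx-3 fell, from 377 and 481 CPM to 48.9 and 49.8 CPM and from 689 and 672 CPM to 204 and 142 CPM, and inx-6 rose. Without 2-fold replicate 2 the calls of this family were 3 higher and 2 lower, and in the other repeats 0 and 2. No call was made among the maternal RNA-binding, germ granule, microRNA machinery, heterochronic and cell cycle exit lists, and in the heterochronic list hbl-1 was at 230.9 and 248 CPM and then at 1809 and 983 CPM.

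A list of 15 genes held 14 that the study discusses as predicted targets of the miR-51 family and the related hst-3.1. In wild-type embryos 1 of the 15 was called between these stages (6.67%, against 4.35% of all tested genes). cdh-3, a cadherin gene, went from 15.9 and 21.9 CPM to 192 and 97.1 CPM (log2 change 2.93, SE 0.62, adjusted p = 0.00321), in repeats that called between 0 and 2 of the 15. The other 14 were not called. The most abundant, kal-1, was at 131 and 131 CPM and then at 74.2 and 71.6 CPM, and lin-12, eff-1, hst-3.1, hst-3.2 and lon-1 were under 12 CPM in both bean libraries.

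By position, 95 of 1740 tested genes of the X chromosome (5.46%) rose, against 2.06% to 3.77% on the autosomes, and between 0.774% and 1.51% of each chromosome's tested genes fell. Of the 381 genes that rose 170 (44.6%) had only a sequence name, as did 59 (41.0%) of the 144 that fell and 39.8% of the tested genes. The lists held 64 of the genes that rose and 18 of those that fell.

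The change from bean to 2-fold was also measured in miR-51Fam null embryos, which share no library with the wild type. There, 1075 genes were called (8.91%), of which 540 (4.48%) were higher and 535 (4.44%) lower. Of the 381 genes that rose in wild-type embryos, 289 (75.9%) were called higher in null embryos, and of the 144 that fell, 72.9% were called lower, and none was called in the opposite direction. The sign of the change was shared by 377 of the 381 and 143 of the 144, against 7946 of all tested genes (65.9%). Null embryos had the same number of sarcomere genes higher, 9 of 36, 8 of 47 Hedgehog-related genes and 11 of 42 cilium genes.

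The genotypes differed in the change itself for 38 genes (0.315%) by the interaction test of the same model, and 774 had an unadjusted p below 0.05. In 36 of the 38 the null embryos fell more. Of these 36, 23 had no read in either null 2-fold library, so the size of their difference is not resolved in molecules. All 36 were called lower in null embryos and cdt-1 alone was called lower in the wild type, and 15 of the 36 were in the replication and mitosis lists, which fell to 362 and 324 CPM and to 1339 and 1667 CPM in the null 2-fold libraries. Vitellogenin mRNA summed to 0 and 6.17 CPM in the null 2-fold libraries against 1053 and 3327 CPM in the wild type, and its part in these differences was not tested. Wild-type 2-fold replicate 2 was above replicate 1 for 31 of the 36, and the share of all tested genes with this order is not given for comparison. Without that library 87 genes differed, 73 of them with the larger fall in null embryos.

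**Figure D5:**
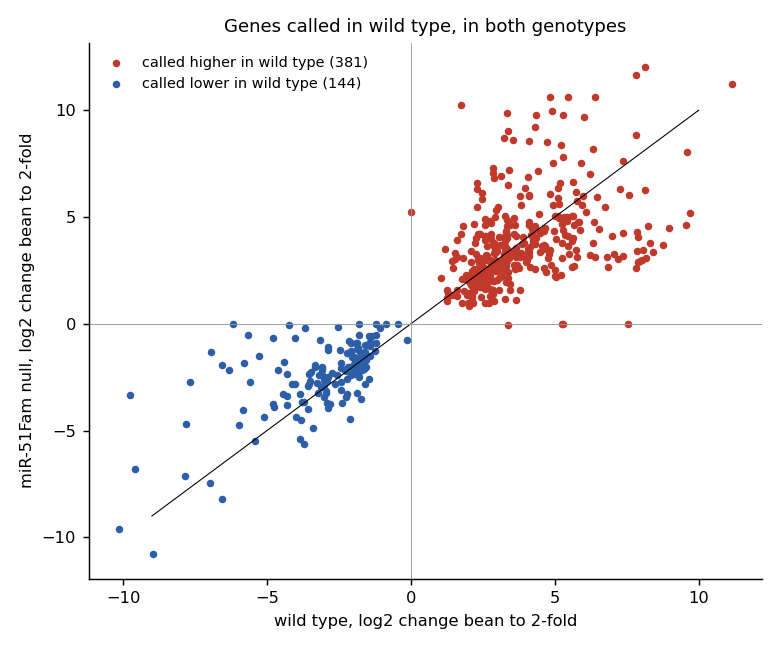
Log2 change from bean to 2-fold in wild-type embryos (x axis) and miR-51Fam null embryos (y axis) for the 381 genes called higher (red) and the 144 called lower (blue) in the wild type, with the diagonal of equal change and genes without reads at a stage at their bound. Points lie in the upper right and lower left apart from a few on the zero lines.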

How the data were processed

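Per the labels and methods, the authors extracted UMIs with UMI-tools, trimmed the reads, mapped them to WBcel235 with STAR, removed duplicate reads by UMI and counted what was left per gene with HTSeq. The deepest of the 4 libraries had reads in fewer genes than the shallowest, so the deposited counts were treated here as reads that can repeat a molecule. The shallowest was 2-fold replicate 2, the library with more adult and maternal mRNA, and the part of that material in its gene number was not tested. All floors and bounds rest on this treatment, which departs from the described processing. The authors deposited whole-number counts, 1 file per library, not normalised, with 5 summary lines that were left out here. The strand setting and annotation release are not given in the sources used here, so antisense and overlapping genes cannot be told apart, and 44.1% to 60.1% of the reads of the 4 wild-type bean and 2-fold files mapped to more than 1 place.

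Genes with 20 or more reads in all were tested with edgeR 4.0.16 in R 4.3.3 (TMM scaling, robust quasi-likelihood F test, two-sided) in 1 model with 6 groups over the 12 libraries, with Benjamini-Hochberg adjustment over all tested genes and calls at an adjusted p under 0.05. The code was tested on simulated data. Reads per molecule were estimated per library from the share of weak genes (1 to 3 CPM across the remaining 11) that had no read. The remaining 11 include other stages and genotypes, so genes absent at a stage can raise the estimate. A floor is 3 estimated molecules over the 2 libraries of a stage. A fold against a stage without reads was taken against its floor. Exact 95% counting intervals take reads as independent. An SE is the absolute log2 change over the square root of F, and none is given where a stage had no reads. Gene positions are from the WBcel235 annotation of Ensembl.

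The stages, the 41 lists, the 3 marker lists and the 6 families were chosen with earlier results of these data known. Lists are described by counts and medians, without a set test. Genes named by rule were the 8 with the smallest p in each direction whose libraries did not overlap and whose level reached 50 CPM, the 2 called members with the smallest p in each direction and the most abundant member of each list, the study's target genes, and the 5 with the smallest interaction p in each direction. Where 1 direction of a rule gave fewer genes, fewer were named. Alternatives were DESeq2 1.42.0 (test and size factors), TMMwsp scaling, other filters and sample sets, a replicate block, molecule-scaled and thinned counts, and each library left out in turn. The authors' comparisons were not used. The most abundant member of 1 list is not reported here.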

Additional observations from a re-analysis of the deposited data

Results flagged for a closer look

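The change from bean to 2-fold differed between wild-type and miR-51Fam null embryos for 38 genes by the interaction test of edgeR. cdt-1 (adjusted p = 0.0004289), the phosphoethanolamine methyltransferase gene pmt-2 (0.0002242), the condensin II gene capg-2 (0.0002242), the DNA polymerase ε subunit gene pole-4 (0.0009461) and the kinesin gene zen-4 (0.0009461) led those that fell more in null embryos. In the null 2-fold libraries zen-4 was at 0 and 0.134 CPM and the other 4 had no read, while the wild-type 2-fold libraries held 22.4 and 57 CPM of cdt-1, 18.8 and 23.1 CPM of pmt-2, 41.8 and 102 CPM of capg-2, 12 and 35.2 CPM of pole-4 and 20.4 and 98.3 CPM of zen-4. The higher of each pair was wild-type 2-fold replicate 2, the library with more vitellogenin and maternal mRNA. Without it all 5 genes still differed between the genotypes by the same test, while cdt-1, pole-4 and zen-4 were no longer called without null 2-fold replicate 2. None of the 7 genes named here passed with molecule-scaled counts.

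The 2 genes that went the other way were F26F12.4 (adjusted p = 0.0212), at 7.35 and 8.97 CPM and then at 241 and 160 CPM in the wild type and at 0 and 0 CPM and then at 184 and 197 CPM in null embryos, and the asparagine synthetase gene asns-2 (adjusted p = 0.04799), at 31.2 and 35.4 CPM and then at 53.6 and 42.5 CPM in the wild type and at 189 and 158 CPM and then at 1807 and 1375 CPM in null embryos. For F26F12.4 the mean wild-type bean level lay under the bean floor of 8.49 CPM, and null embryos had no bean read. The size of its difference between genotypes is therefore not resolved in molecules.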

How the results depend on the processing

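The 525 calls of the wild-type comparison became 1543 with the 4 libraries fitted alone, 805 with DESeq2's test, 1190 with molecule-scaled counts, 880 without a filter on low counts, 1010 with libraries thinned to equal depth, and between 233 and 917 with 1 library left out. The 1075 calls in null embryos ranged from 708 to 1480 with 1 library left out. The 38 genes that differed between genotypes became about 1.0e+02 with DESeq2's test (91 in which null embryos fell more or rose less, and 13 the other way), 24 with edgeR's own filter, 5 with molecule-scaled counts, 173 without a filter, 85 after thinning and between 12 and 133 with 1 library left out (87 without wild-type 2-fold replicate 2). The cause of these shifts was not tested. Of the 134 named genes called in the wild type none changed direction under any alternative, and 65 lost their call without 2-fold replicate 1, 53 without bean replicate 1, 51 without bean replicate 2 and 6 without 2-fold replicate 2.

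The replicate numbers are shared between groups. Deviations of same-numbered libraries from their group means had correlations between −0.109 and 0.0880 over the 15 pairs of groups, none over 0.1. The value was 0.0424 between wild-type bean and 2-fold. Whether same-numbered libraries were prepared together is not stated and was not tested, and with 2 libraries per group these correlations cannot decide it. A replicate block gave 836 calls in the wild-type comparison and 184 genes that differed between genotypes.

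With 2 libraries per stage, a gene that was not called may still have changed. The floors rest on the estimated reads per molecule, and with the other estimate they were 17.4 CPM at the bean and 13 CPM at the 2-fold stage. Changes smaller than these floors in genes near 0 were not detectable at this depth.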
